A study of Homo sapiens with 6 samples.

Results

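Oxidative phosphorylation genes are described here in THP1 cells, a human cell line derived from monocytic leukaemia, after 6 h with Withaferin A (WFA), a steroidal lactone from a plant, or with its DMSO vehicle. Genes were taken from the deposited count table when their symbol began with NDUF, SDH, UQCR, COX4 to COX8 or ATP5 and followed the pattern used for subunit names. This gave 95 of the 26485 genes in the table. By textbook function, 83 of them encode subunits or subunit isoforms of complexes I to V, and 7 are the complex I assembly factors NDUFAF1 to NDUFAF7. The other 5 were counted with neither set (ATP5S, ATP5SL, ATP5L2, ATP5EP2 and UQCRBP1). ATP5SL is named DMAC2 in RefSeq, and its function was not used to place it. Each group held 3 RNA-seq libraries from separate experiments, all from the unmodified parent line. The labels give the WFA concentration as 1 mM and the study's methods give it as 1 μM, so the dose is not certain from the labels alone. Reads counted on genes summed to between 11006035 and 13872810 per library. All 10 myeloid markers examined, among them CD33, LYZ and SPI1, were above 3 counts, whereas all 3 T cell markers and all 3 erythroid markers were at or under 3 counts in every library. Of 3 B cell and 3 epithelial markers, only MS4A1 and EPCAM were at that floor. The B cell markers summed to 0.774 to 1.17 CPM with DMSO and 1.30 to 1.85 CPM with WFA. The epithelial markers summed to 0.667 to 0.869 CPM with DMSO and 0.931 to 0.980 CPM with WFA. Summed levels of 3 fibroblast markers were low and moved with treatment, from 1.48 to 1.66 CPM (counts scaled to the size of each library) in the DMSO libraries to between 10.0 and 13.8 CPM with WFA, with COL1A2 at or under 3 counts. Their part in the results was not tested.

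Oxidative phosphorylation takes place in the inner mitochondrial membrane. Complexes I and II pass electrons from NADH and succinate to ubiquinone, complex III passes them on to cytochrome c, and complex IV gives them to oxygen. Complexes I, III and IV pump protons as they do so, and complex V, the ATP synthase, uses the returning protons to make ATP. Most subunits are encoded in the nucleus and imported, while a small core set is encoded by mitochondrial DNA, and dedicated assembly factors join both kinds. Only nuclear genes are covered here. None of the mitochondrially encoded subunits was found in the deposited counts under the symbols searched, so they were not analysed.

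The nuclear subunit genes changed little after WFA. In a fit across all genes with edgeR's quasi-likelihood test, 75 of the 83 subunit genes had enough counts to be tested, and 2 were higher and 14 lower with WFA at a Benjamini-Hochberg adjusted p under 0.05. That is 21.3% of the subunits tested, beside 50.5% of all 12854 genes tested. Split by direction, 25.8% of all genes were higher and 24.7% lower. No subunit passed the threshold with a change of over 2-fold, which 13.3% of all genes did. The log2 fold changes of the subunits, WFA over DMSO, had a median of -0.03, beside a median of 0.02 over all genes. The median standard error (SE) of the subunits' log2 fold change was 0.10, and it was 0.12 over all genes. The 95% interval of every tested subunit lay within 1 of 0 on the log2 scale, so that each interval excluded a 2-fold change either way. For 55 of the 59 subunits that did not pass the threshold, the interval lay within 0.5 of 0.

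Libraries of both groups did not overlap for 4 subunits that were higher and 16 that were lower, beside 58.1% of all genes whose groups did not overlap in either direction. The plot of fold changes by complex shows that the changes past the threshold sit at the edges of a narrow spread around 0. In bulk RNA, fewer cells with a given RNA and less of that RNA per cell cannot be told apart.

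**Figure D1:**
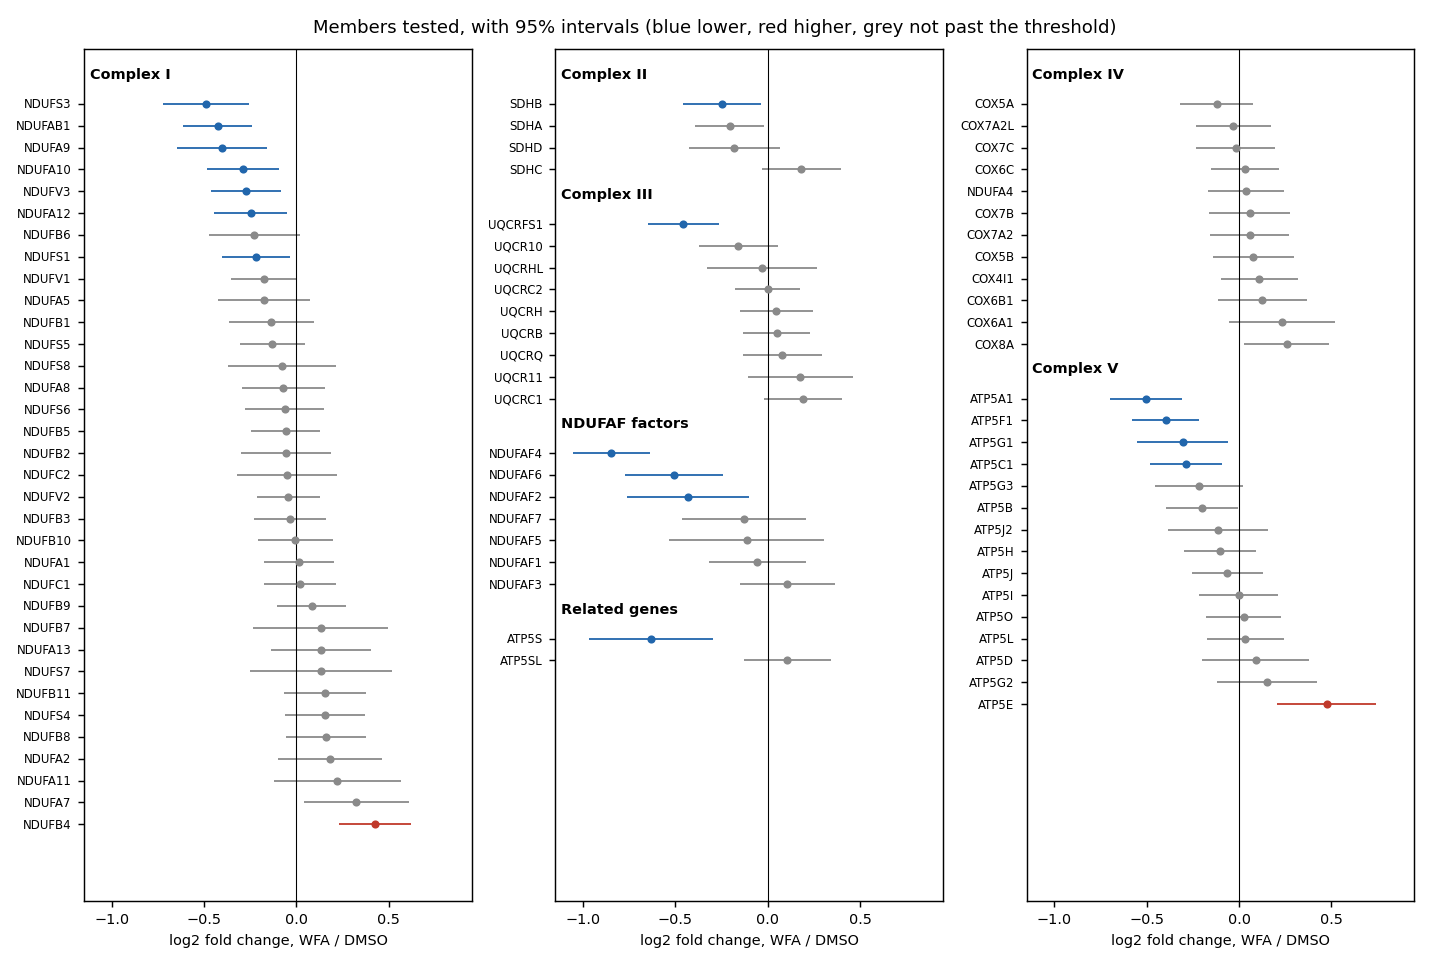
Log2 fold change (WFA over DMSO) of 83 of the 84 members tested, by complex, with 95% intervals from edgeR's fit of 3 against 3 libraries. Blue points are lower and red points higher at an adjusted p under 0.05, and grey points did not pass. No subunit of complex IV is coloured, and NDUFAF4 lies furthest from 0.

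DMSO replicate 3 stood apart from the other libraries for these genes. It had the lowest level of the 3 DMSO libraries for 71 of the 75 subunits (94.7%), whereas it was the lowest for 36.5% of all genes tested. Its median deviation from the DMSO mean was -0.16 on the log2 scale over the subunits and -0.004 over all genes. WFA replicate 3 showed a smaller deviation the same way. It was the lowest of the WFA libraries for 42 of 75 subunits, and its median deviation was -0.05. The summed level of the tested subunits was 8928, 8943 and 7753 CPM in DMSO replicates 1, 2 and 3, and 8148, 8382 and 7715 CPM with WFA. DMSO replicate 3 therefore lay below WFA replicates 1 and 2 and just above WFA replicate 3, and the groups overlapped in this sum. Without DMSO replicate 3, 2 subunits were higher and 17 lower, and their median log2 fold change was -0.07.

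**Figure D2:**
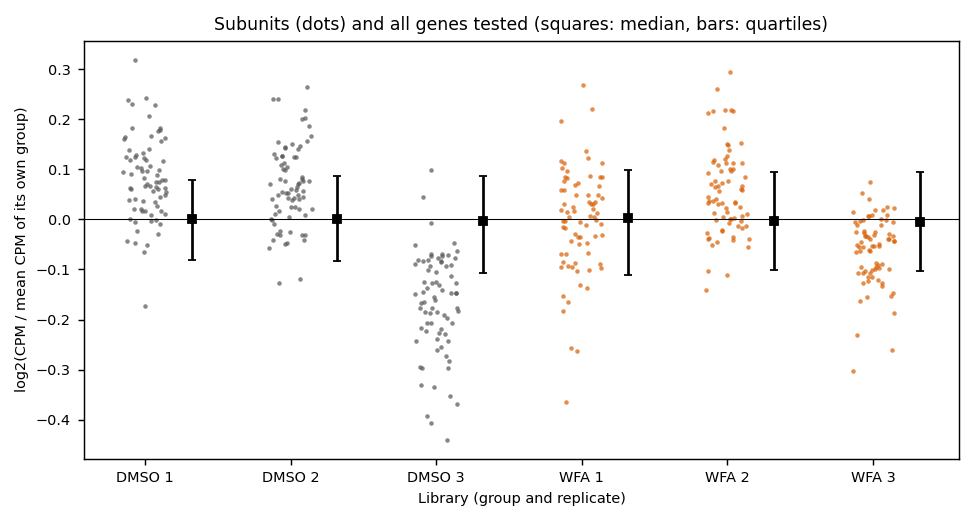
Log2 deviation of each subunit (75 dots per library) from the mean CPM of its own group, beside the median and quartiles of all 12854 genes tested (black squares and bars). The dots of DMSO replicate 3 lie almost all below 0 (73 of 75), while the medians of all genes stay near 0 in each of the 6 libraries.

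Replicate numbers were taken to mark the 3 experiments, and same-numbered DMSO and WFA libraries shared deviations from their group means. With the replicate number as a block in edgeR's fit, 7 subunits were higher and 20 lower. All 16 subunits past the threshold without the block remained past it. The 11 gained were ATP5B, ATP5G3, COX6A1, COX8A, NDUFA11, NDUFA5, NDUFA7, NDUFB6, SDHA, SDHD and UQCRC1. In the fit with the block 59.0% of all genes were called, beside these 27 of 75 subunits.

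Promoters of the subunits were searched for sequence words that the choice of genes did not use. Nuclear genes of the respiratory chain are known for binding sites of NRF1, of ETS factors such as GABP, and of YY1 near their start sites. Words for these factors and for an E-box were searched on both strands in windows from 250 bases before to 50 bases after the start site, in RefSeq on GRCh38.p14. They were GCGCANGCG for NRF1, CCGGAAG for ETS factors, AAGATGGCG for YY1, and CACGTG, the E-box bound by MYC and related factors. A window was found for 67 of the 83 subunits. A gene with several windows was counted as 1 window, holding a word if any of them did. Differences between the shares were not tested. The NRF1 word was in 34.3% of the subunit windows, in 17.0% of the windows of tested genes and in 9.02% of all windows. The ETS word was in 29.9%, 22.6% and 12.2% of these windows, the YY1 word in 13.4%, 4.8% and 2.14%, and the E-box in 10.4%, 12.6% and 8.77%. Of the 13 windows of subunits that were lower with WFA, 5 held the NRF1 word (38.5%) and 4 the ETS word (30.8%), shares close to those of the subunits as a whole. Of the 14 complex IV windows, 2 held the NRF1 word (14.3%) and 5 the ETS word (35.7%), while none held the YY1 word or the E-box. These 14 include isoforms at or near 0 counts, and among the 10 windows of tested complex IV subunits 1 held the NRF1 word and 5 the ETS word.

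The promoters of NDUFB4 and ATP5C1 are shown because both hold GCGCATGCG, an NRF1 word, overlapping its reverse complement by all but its end base, and these genes moved in opposite directions with WFA. Counted from the start site at 0, the pair begins at -159 in NDUFB4, which has 2 further NRF1 words, both GCGCAGGCG, and at -22 in ATP5C1, which has no other. NDUFB4 was higher (plus strand, chr3:120596086-120596365) and ATP5C1, named ATP5F1C in RefSeq, was lower (plus strand, chr10:7787927-7788206). The promoters of UQCRFS1 (minus strand, chr19:29213122-29213401) and NDUFAF4 (minus strand, chr6:96897862-96898141) are shown as those of the complex III subunit that was lower and of the assembly factor with the largest fall among the 7 NDUFAF genes. Each runs 5′ to 3′ from 250 bases before the start site to 30 bases past it, and capitals mark the matches, which are NRF1 words in NDUFB4, ATP5C1 and UQCRFS1 and the ETS word in NDUFAF4. These 4 were chosen after their values were seen. A match describes the letters only.
NDUFB4: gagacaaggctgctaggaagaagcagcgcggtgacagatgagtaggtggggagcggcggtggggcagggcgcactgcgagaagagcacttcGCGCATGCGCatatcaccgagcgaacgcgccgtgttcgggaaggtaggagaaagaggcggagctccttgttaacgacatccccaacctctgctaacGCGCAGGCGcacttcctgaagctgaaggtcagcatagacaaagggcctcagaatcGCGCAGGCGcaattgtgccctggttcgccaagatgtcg
ATP5C1: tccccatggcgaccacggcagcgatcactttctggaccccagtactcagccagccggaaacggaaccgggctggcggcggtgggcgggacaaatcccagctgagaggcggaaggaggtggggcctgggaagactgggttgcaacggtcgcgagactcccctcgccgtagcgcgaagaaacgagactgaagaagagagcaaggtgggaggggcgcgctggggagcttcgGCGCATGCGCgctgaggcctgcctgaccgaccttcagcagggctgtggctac
UQCRFS1: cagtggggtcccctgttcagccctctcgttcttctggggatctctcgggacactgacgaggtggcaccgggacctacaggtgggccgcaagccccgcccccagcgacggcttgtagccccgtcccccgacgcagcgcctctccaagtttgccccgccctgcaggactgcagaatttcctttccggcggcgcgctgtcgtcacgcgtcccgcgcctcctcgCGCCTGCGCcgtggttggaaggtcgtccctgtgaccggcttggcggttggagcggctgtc
NDUFAF4: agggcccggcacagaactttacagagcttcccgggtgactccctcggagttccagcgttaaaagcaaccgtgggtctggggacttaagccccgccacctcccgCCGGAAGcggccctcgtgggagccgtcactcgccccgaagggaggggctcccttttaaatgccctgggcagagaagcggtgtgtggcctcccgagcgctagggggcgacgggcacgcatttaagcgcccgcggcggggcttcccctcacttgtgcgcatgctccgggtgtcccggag

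Complex I, the NADH dehydrogenase, had 37 subunit genes in the table, of which 35 were tested. With WFA 1 was higher and 8 were lower, 25.7% in all, beside 50.5% of all genes tested. The median log2 fold change of these subunits was -0.06. Among the 7 nuclear core subunits, which carry the flavin and the iron-sulphur clusters or the quinone site, 3 were lower and the median was -0.18. Among the 28 accessory subunits tested 1 was higher and 5 were lower, with a median of -0.04. The shares past the threshold, 42.9% of the core and 21.4% of the accessory subunits, were both under that of all genes. Of all genes 24.7% were lower and 25.8% higher. Without DMSO replicate 1 only 3 complex I subunits were lower, and without WFA replicate 3 there were 5.

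NDUFS3, a core subunit of the matrix arm, had 82.6, 79.5 and 69.7 CPM with DMSO and 51.5, 63.9 and 49.7 CPM with WFA. The groups did not overlap, although WFA replicate 2 came near the lowest DMSO library. Its log2 fold change was -0.49 (SE 0.11, edgeR adjusted p = 0.00156). Exons of NDUFS3 overlap those of PTPMT1 on the same strand, which was also lower (log2 fold change -0.39), and those of CELF1 (0.04, not past the threshold) and KBTBD4 (0.30, higher) on the other strand. How reads on shared exons were assigned was not given.

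NDUFAB1, the mitochondrial acyl carrier protein that is also a complex I subunit, had 86.0, 82.3 and 78.4 CPM with DMSO and 62.7, 64.3 and 56.5 CPM with WFA. The groups were apart by more than the spread within either, and its log2 fold change was -0.43 (SE 0.09, edgeR adjusted p = 0.000947). Also lower were NDUFA9 (log2 fold change -0.40), NDUFA10 (-0.29), NDUFV3 (-0.27), NDUFA12 (-0.25) and NDUFS1 (-0.22). NDUFS1, the largest iron-sulphur subunit, had an edgeR adjusted p of 0.0445 and kept the call in 1 of 6 fits with a library left out.

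NDUFB4, an accessory subunit of the membrane arm, went the other way. It had 102, 109 and 88.3 CPM with DMSO and 139, 134 and 129 CPM with WFA, so that its lowest WFA value was above its highest DMSO value. The log2 fold change was 0.43 (SE 0.09, edgeR adjusted p = 0.00126), and it passed with each library left out. NDUFB9, another membrane-arm subunit, had the most counts per kilobase of transcript in complex I, at 246 CPM per kilobase with DMSO and 260.0 with WFA, and did not pass the threshold (log2 fold change 0.08, 95% interval -0.10 to 0.27). Just outside the threshold was NDUFA7, an accessory subunit, at 0.32 on the log2 scale (edgeR adjusted p = 0.0536). No fold can be given for NDUFA3 and NDUFA6. They had 1 count and 0 counts over all 6 libraries, and since both encode subunits found in all respiring cells, these counts are not read as absence.

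**Figure D3:**
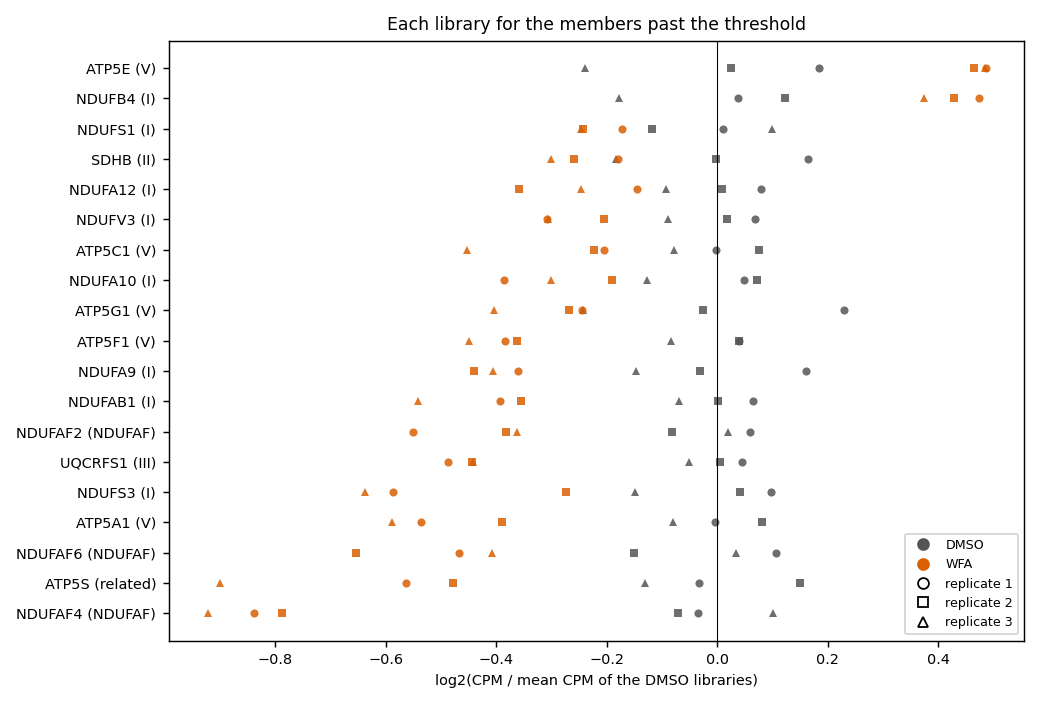
Level of each library as log2 of its CPM over the mean CPM of the 3 DMSO libraries, for 19 of the 20 members past the threshold (complex in brackets). Grey marks are DMSO and orange marks WFA, with the replicate given by the shape. The groups of SDHB overlap, and ATP5E and NDUFB4 are to the right of the DMSO libraries in all 3 WFA libraries.

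Complex II, succinate dehydrogenase, has 4 subunits, all tested, and belongs to the citric acid cycle as well as to the chain. Its median log2 fold change was -0.19, and SDHB was the only member past the threshold. That is 25% of them, beside 50.5% of all genes tested. SDHB, the iron-sulphur subunit, had 86.1, 76.8 and 67.7 CPM with DMSO and 67.8, 64.2 and 62.3 CPM with WFA. DMSO replicate 3 lay just below WFA replicate 1, so the groups overlapped. The log2 fold change was -0.25 (SE 0.10, edgeR adjusted p = 0.0483), the subunit nearest to the threshold from inside, and it kept the call in 1 of 6 fits with a library left out. SDHA, the flavoprotein, had a change of -0.20 on the log2 scale (edgeR adjusted p = 0.0644), and the membrane anchors SDHD and SDHC had -0.18 and 0.18. With the replicate block SDHA, SDHB and SDHD were lower. SDHC had the most counts per kilobase of the 4, at 152 CPM per kilobase with DMSO.

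Complex III, the cytochrome bc1 complex, had 9 nuclear subunits under these symbols, all tested, and 1 was lower. That is 11.1% of them, beside 50.5% of all genes tested. The median log2 fold change of the 9 was 0.05 and became -0.04 when libraries were scaled by total counts. UQCRFS1, the Rieske iron-sulphur protein and a catalytic subunit, had 56.5, 55.0 and 52.8 CPM with DMSO and 39.0, 40.3 and 40.3 CPM with WFA. The spread within each group was small and the groups were far apart. Its log2 fold change was -0.46 (SE 0.09, edgeR adjusted p = 0.000613), and it passed with each library left out. The core proteins UQCRC1 and UQCRC2, which face the matrix, had log2 fold changes of 0.19 (95% interval -0.02 to 0.40) and -0.001 (-0.17 to 0.17) and did not pass. UQCRH, the hinge protein near cytochrome c1, had the most counts per kilobase among all subunits, at 430.5 CPM per kilobase with DMSO and 444 with WFA. UQCRH and its near-identical copy UQCRHL may share reads, so their levels of 260.0 and 15.1 CPM with DMSO are uncertain. Their log2 fold changes were 0.05 and -0.03.

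Complex IV, cytochrome c oxidase, was the complex without any call in edgeR's fit without the block. None of its 12 tested nuclear subunits was past the threshold in that fit, beside 50.5% of all genes tested, and none was in DESeq2's Wald test. At an unadjusted edgeR p under 0.05 there was 1, COX8A, which was higher. With the replicate block 2 passed, COX6A1 and COX8A, both higher. Without the block the log2 fold changes lay between -0.12 and 0.26 with a median of 0.06. This median was -0.03 with total counts as library sizes and -0.03 without DMSO replicate 3, so its sign is not settled. All 12 subunits were lowest among the DMSO libraries in DMSO replicate 3. Beside this, the levels of the 3 DMSO libraries summed to 1788, 1843 and 1503 CPM and those of the WFA libraries to 1779, 1873 and 1674 CPM.

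Several complex IV subunits exist as isoforms, and in these cells each isoform pair was held by its widely expressed form. COX4I1, the main regulatory isoform, had 311, 319 and 263 CPM with DMSO and 332, 339 and 293 CPM with WFA. The groups overlapped, and the log2 fold change was 0.11 (95% interval -0.10 to 0.32). COX4I2, the isoform known from lung, had 1 count in all 6 libraries together. COX6A1 had 43.0 ± 9.48 CPM (SD, n = 3) with DMSO and 50.6 ± 3.05 CPM (SD, n = 3) with WFA, while its heart and muscle form COX6A2 had no count. COX6B1 had 117 ± 18.2 CPM (SD, n = 3) with DMSO and 128 ± 12.3 CPM (SD, n = 3) with WFA, while the testis form COX6B2 had at most 2 counts in a library. COX7A2 and the related COX7A2L, which helps join complexes III and IV, had log2 fold changes of 0.06 and -0.03, and the muscle form COX7A1 had no count. COX8A, the widely expressed form of the smallest subunit, had 75.6 ± 10.5 CPM (SD, n = 3) with DMSO and 90.4 ± 8.28 CPM (SD, n = 3) with WFA, and COX8C had no count. Its edgeR adjusted p was 0.0593, and it passed with the block, with no count filter, with a minimum count of 50, and without DMSO replicate 1 or WFA replicate 1. COX6A1 passed with the block (edgeR adjusted p = 0.0191) and without DMSO replicate 2. COX4I1 had the most counts per kilobase in this complex, at 418 CPM per kilobase with DMSO.

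Complex V, the ATP synthase, had 1 subunit higher and 4 lower of 15, or 33.3%, below the share over all genes. Its median log2 fold change was -0.10, and the summed level of its subunits was 3061, 3055 and 2659 CPM with DMSO and 2556, 2646 and 2383 CPM with WFA. The lowest DMSO library was above the highest WFA library only by a narrow margin. Without DMSO replicate 2 or without WFA replicate 3, 2 complex V subunits were lower instead of 4.

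Of the 5 subunits of F1, the catalytic head, 3 passed the threshold, beside 50.5% of all genes tested. ATP5A1, the alpha subunit, had 611, 649 and 580 CPM with DMSO and 423, 468 and 408 CPM with WFA. Its groups were separated by more than the spread within either. It fell by 29.4%, a log2 fold change of -0.50 (SE 0.09, edgeR adjusted p = 0.000332). ATP5A1 shares exonic bases with HAUS1 on the other strand, which was also lower (log2 fold change -0.42). ATP5B, the beta subunit with the catalytic sites, had 697, 665 and 598 CPM with DMSO and 570, 581 and 553 CPM with WFA, the most counts per kilobase in the complex. Its groups did not overlap, but the log2 fold change of -0.20 did not pass (edgeR adjusted p = 0.0790) and did so only with DESeq2, total counts, the block or DMSO replicate 3 left out. The gamma subunit of the central stalk, ATP5C1, had 121, 128 and 115 CPM with DMSO and 105, 104 and 88.8 CPM with WFA. Each WFA value was below each DMSO value, and the log2 fold change was -0.29 (SE 0.09, edgeR adjusted p = 0.0156).

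ATP5E, the small epsilon subunit of the central stalk, was higher. Its level was 20.5, 18.4 and 15.3 CPM with DMSO and 25.3, 24.97 and 25.3 CPM with WFA. The WFA libraries were close together and all above the DMSO libraries, with a log2 fold change of 0.47 (SE 0.13, edgeR adjusted p = 0.0055). TUBB1, whose exons overlap ATP5E on the other strand, had a mean of 0.147 CPM with WFA. ATP5D, the delta subunit, did not pass (log2 fold change 0.09).

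The proton-driven c-ring is built from a single mature protein that ATP5G1, ATP5G2 and ATP5G3 all encode. ATP5G1 had 62.7, 52.5 and 45.2 CPM with DMSO and 45.1, 44.4 and 40.4 CPM with WFA. DMSO replicate 3 was almost level with WFA replicate 1, and the log2 fold change was -0.31 (SE 0.12, edgeR adjusted p = 0.0395), a call kept in 1 of 6 fits with a library left out. ATP5G2 had a log2 fold change of 0.15 (95% interval -0.12 to 0.42) and ATP5G3 of -0.22 (-0.45 to 0.02), and neither passed. In the peripheral stalk, ATP5F1, the b subunit, had 361.5, 361 and 332 CPM with DMSO and 269, 273 and 258 CPM with WFA. The groups did not overlap, and the log2 fold change was -0.40 (SE 0.08, edgeR adjusted p = 0.00107). WDR77, on the other strand with shared exonic bases, fell further (log2 fold change -0.99), from 106 to 52.9 CPM. The other stalk subunits, ATP5H, ATP5J and ATP5O, had log2 fold changes between -0.10 and 0.03, and the membrane subunits ATP5I, ATP5J2 and ATP5L between -0.11 and 0.03, and none of these 6 passed in edgeR's fit at an adjusted or unadjusted p under 0.05, nor in DESeq2's.

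The NDUFAF proteins build complex I but are not part of it. Of the 7, 3 were lower and none higher, or 42.9% of them. Of all genes tested 50.5% passed in either direction and 24.7% were lower. The median log2 fold change of the 7 was -0.13. DESeq2 called 2 lower and none higher, and at an unadjusted edgeR p under 0.05 no NDUFAF gene was higher. NDUFAF4, an early factor that acts with NDUFAF3 on the module holding NDUFS3, had the largest fall of all members. It had 53.9, 52.5 and 59.2 CPM with DMSO and 30.9, 31.97 and 29.1 CPM with WFA. The highest WFA value was far below the lowest DMSO value, and DMSO replicate 3 was here the highest of its group. NDUFAF4 fell by 44.4%, a log2 fold change of -0.85 (SE 0.10, edgeR adjusted p = 4.63e-06).

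NDUFAF6, another early factor, had 25.7, 21.6 and 24.5 CPM with DMSO and 17.3, 15.2 and 18.1 CPM with WFA. These groups did not overlap, and the log2 fold change was -0.51 (SE 0.12, edgeR adjusted p = 0.00322). NDUFAF2, a late factor, had 9.85, 8.92 and 9.58 CPM with DMSO and 6.45, 7.25 and 7.35 CPM with WFA, with a log2 fold change of -0.43 (SE 0.15, edgeR adjusted p = 0.0298). Its groups did not overlap, but it did not pass in DESeq2's test (adjusted p = 0.0628) and kept the call in 3 of 6 fits with a library left out. NDUFAF3 had a log2 fold change of 0.11 (95% interval -0.15 to 0.36). NDUFAF1, part of the assembly complex for the membrane arm, had -0.06, and NDUFAF5 and NDUFAF7, which modify core subunits, had -0.11 and -0.13. None of these 4 passed. ATP5S, which carries an ATP synthase symbol but is no subunit of it, was lower, with 12.7 ± 1.26 CPM (SD, n = 3) in the DMSO group and 8.16 ± 1.21 CPM (SD, n = 3) in the WFA group. Its log2 fold change was -0.63 (SE 0.16, edgeR adjusted p = 0.00368), and its exons overlap those of CDKL1 and others on the opposite strand.

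Assembly factors outside these symbols were lower more often than the subunits in these counts, a difference given side by side and not tested. Of 44 such factors for complexes I to V, 22 were lower and none higher (50%), with a median log2 fold change of -0.28. DESeq2 called 19 lower and none higher, and 1 factor was higher at an unadjusted edgeR p under 0.05. This share is close to that of all genes called, 50.5%, but it is all in the lower direction, where the share of all genes was 24.7%. Without WFA replicate 3 the count lower was 16, and it stayed between 16 and 24 over all alternatives. The bar chart of shares sets the lists beside each other.

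**Figure D4:**
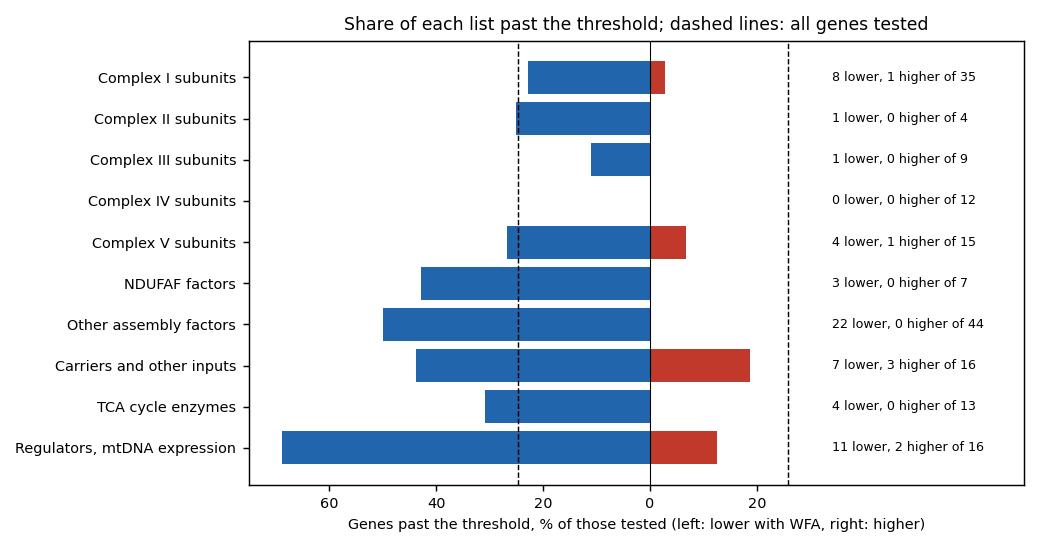
Share of the tested genes of each list that were lower (left, blue) or higher (right, red) with WFA at an edgeR adjusted p under 0.05, with counts at the right. Dashed lines mark the shares of all genes, 24.7% lower and 25.8% higher. Complex IV subunits have no bar, while 22 of 44 other assembly factors are lower.

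For complex IV no subunit passed in edgeR's fit without the block, whereas many genes listed as its assembly factors did. With the block 2 subunits were higher, COX6A1 and COX8A. Of 23 complex IV assembly factors 13 were lower and none higher in edgeR's fit, with a median log2 fold change of -0.39. DESeq2 called 12 of them lower and none higher. Of all genes tested 24.7% were lower and 25.8% higher in edgeR's fit. COA7, a factor needed for complex IV, had 75.3, 67.8 and 75.6 CPM with DMSO and 32.4, 37.6 and 34.7 CPM with WFA. Its WFA libraries were all far below its DMSO libraries, and the log2 fold change was -1.06 (SE 0.10, edgeR adjusted p = 4.51e-07). COA4 and the copper chaperone SCO1 had log2 fold changes of -0.87 and -0.82. COX10, which makes the heme A precursor, and SCO2, a second copper chaperone, had -0.88 and -1.05 and are named here after their values were seen. So is LRPPRC, which stabilises mitochondrial mRNAs, with -0.39. The groups of SCO2 overlapped, with 6.33, 8.45 and 5.17 CPM with DMSO and 1.96, 5.24 and 2.33 CPM with WFA. Its SE was 0.31, and its log2 fold change ran from -1.63 to -0.79 with a library left out.

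The remaining lists were smaller, and their counts stand beside 24.7% of all genes lower and 25.8% higher. For complex III, 5 of 7 genes were lower and none higher, counting the catalytic subunit cytochrome c1 (CYC1, log2 fold change -0.37), whose symbol was outside the choice and which is named after its value was seen. BCS1L, the chaperone that inserts the Rieske protein UQCRFS1, had 25.7, 29.5 and 26.6 CPM with DMSO and 15.5, 16.3 and 14.2 CPM with WFA. Its groups were well apart (log2 fold change -0.83, edgeR adjusted p = 3.95e-05). UQCC2 and LYRM7, a further factor for the Rieske protein, had log2 fold changes of -0.56 and -0.48. Of 8 complex I factors outside the NDUFAF symbols 3 were lower, namely ACAD9 (-0.51), COA1 (-0.37) and NUBPL (-0.36). NUBPL, a factor for iron-sulphur clusters, had an edgeR adjusted p of 0.0481 and kept the call in 1 of 6 fits with a library left out. SDHAF3 was the complex II factor past the threshold (-0.64), and not without DMSO replicate 1 or WFA replicate 3. For complex V, TMEM70, an assembly factor, was lower (-0.42), and ATPIF1, the natural inhibitor of ATP hydrolysis by the enzyme, was higher (0.42).

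Regulators of these genes and of mitochondrial DNA expression had the largest share past the threshold among the lists examined. It was 81.2%, beside 50.5% of all genes tested, and the lists were chosen with earlier results of these data known. Of 16 tested 2 were higher and 11 lower, beside 25.8% and 24.7% of all genes. The median log2 fold change of the 16 was -0.70. C10orf2, the Twinkle helicase of mitochondrial DNA, had 17.0, 16.3 and 16.7 CPM with DMSO and 3.59, 4.27 and 2.98 CPM with WFA. All WFA values were far below the DMSO values, and the log2 fold change was -2.19 (SE 0.16, edgeR adjusted p = 6.02e-08). The coactivators PPRC1 and PPARGC1B had log2 fold changes of -1.83 and -1.62. TFAM and TFB2M, which start transcription of mitochondrial DNA, had -0.78 and -1.26 and are named after their values were seen. The subunits of the ETS factor GABP went the other way, with 0.92 for GABPB1 and 0.54 for GABPA. NRF1 and YY1, whose words were searched in the promoters, had log2 fold changes of 0.25 and 0.07 and did not pass. With the replicate block NRF1 passed (edgeR adjusted p = 0.0382).

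**Figure D5:**
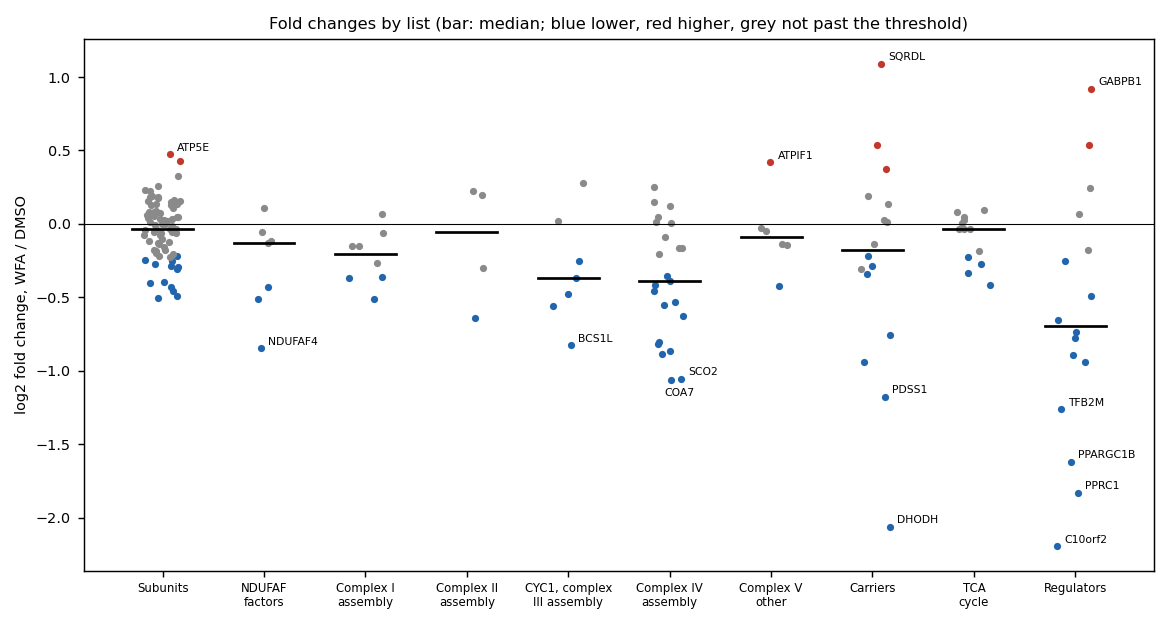
Log2 fold change (WFA over DMSO) of the tested genes by list (74 of the 75 subunits), with black bars at the medians and colours as in the plot by complex. The subunits drawn lie near 0, while complex IV assembly factors reach -1.06, carriers -2.06 and regulators -2.19.

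Genes that feed ubiquinone or cytochrome c, or make ubiquinone, moved in both directions, with 3 higher and 7 lower of 16, beside 25.8% of all genes higher and 24.7% lower. DHODH, the enzyme of pyrimidine synthesis that passes electrons to ubiquinone, had 17.5, 16.9 and 20.8 CPM with DMSO and 3.84, 4.83 and 4.56 CPM with WFA. No WFA library came near the DMSO range, and the log2 fold change was -2.06 (SE 0.16, edgeR adjusted p = 9.10e-08). PDSS1 and COQ2, enzymes of ubiquinone synthesis, had log2 fold changes of -1.18 and -0.94. SQRDL, the sulphide quinone oxidoreductase, was higher with 75.5, 79.0 and 76.2 CPM with DMSO and 174, 156 and 162 CPM with WFA. Its WFA libraries were all far above its DMSO libraries, and its log2 fold change was 1.09 (SE 0.08, edgeR adjusted p = 7.33e-08). GPD2, the mitochondrial glycerol phosphate dehydrogenase, and ETFB, a subunit of the electron transfer flavoprotein, were higher with 0.54 and 0.37. Of 13 enzymes of the citric acid cycle other than complex II, 4 were lower and none higher, with a median of -0.03, among them DLD (-0.41), IDH3A (-0.33) and citrate synthase, CS (-0.27). DESeq2 called 3 lower and none higher, and no enzyme was higher at an unadjusted edgeR p under 0.05. Without DMSO replicate 1, 2 of these enzymes and 4 of the carrier genes were lower.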

How the data were processed

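RNA-seq of THP1 cells gave 6 libraries, with 3 in each group. Raw counts per gene, as whole numbers, were deposited by the authors along with scaled counts and their own comparison, which were not used here. The submitters' processing notes name bcl2fastq 2.19, Trimmomatic, Bowtie2, Picard, featureCounts, DESeq2 and hg38. Strand and the handling of reads on shared exons were not given in the sources used here.

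Counts were analysed with edgeR 4.0.16 in R 4.3.3, using TMM factors, a minimum count of 10 in filterByExpr and quasi-likelihood tests, with Benjamini-Hochberg adjustment over all 12854 genes tested, at a threshold of 0.05. CPM are TMM-scaled. The fit was tested on simulated data. Alternatives were the replicate block, DESeq2 1.42.0, 3 other scalings, 2 other filters and each library left out. The pairing comes from the labelled replicate numbers, which were taken to mark the 3 experiments. The labels do not state this, but same-numbered libraries of both groups end in the same digits in their count column names. Same-numbered libraries had correlations of 0.217, 0.333 and 0.245 in their deviations from group means, others -0.256 to 0.00369. Libraries of a group differed by more than sampling noise. Total counts were 11006035 to 13872810 per library, and the standard errors from edgeR's fit also include the spread between libraries of a group. Zero counts were read against a floor of 3 counts, for counting error only.

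Members and lists were chosen with earlier results of these data known. Named genes were, per complex, up to 3 past the threshold with the smallest p in each direction and the most counted per kilobase, every NDUFAF factor and the isoform groups, and per list up to 3 in each direction. Others are values named after they were seen. Transcript lengths and exon overlaps are from GENCODE 29 and promoters from RefSeq. Lengths were found for 92 of 95 members and are annotated, not measured, so levels per kilobase are approximate. A gene that the rule selects is counted but not reported here by name.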

Additional observations from a re-analysis of the deposited data

How the results depend on the processing

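No called value changed sign, while 7 named genes short of the threshold did so in at least 1 alternative. Of 169 counts and medians recomputed under 13 alternatives 151 moved by less than 1.5 times or the spread between pairs. With the replicate block 7 subunits were higher, and with a minimum count of 50 there were 4. No call of a named gene was lost under the block, and 4 were gained. With each library left out the count of subunits higher ran from 2 to 4 (4 without DMSO replicate 1 or WFA replicate 1) and of subunits lower from 7 to 17 (7 without DMSO replicate 1, 9 without DMSO replicate 2, 8 without WFA replicate 3). Total counts as library sizes moved the median over all genes from 0.02 to -0.06 and the median log2 fold change to -0.11 for the subunits, -0.14 for complex I, -0.28 for complex II, -0.19 for complex V and -0.21 for the NDUFAF factors. With each library left out these medians ran from -0.07 to 0.01 for the subunits, -0.10 to 0.0014 (without WFA replicate 3) for complex I, -0.24 to -0.13 for complex II, -0.17 to -0.04 for complex V and -0.28 to -0.12 for the NDUFAF factors. The signs of the medians of complexes III and IV, and of all subunits, depend on the libraries and scaling used. Of the 40 named genes past the threshold, 34 kept it in all 13 alternatives and 37 in those with all 6 libraries. In fits with a library left out, 2 libraries estimate a group, so a lost call does not show a smaller change. Counts as low as those of NDUFA3, NDUFA6 and the tissue-restricted isoforms allow no fold.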
